A study of Danio rerio with 4 samples.

Results

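The late-numbered zebrafish miRNAs, those named miR-722 and upward in miRBase except miR-731, made up 41 of the 245 rows of the table of normalized counts. The rule uses the number in the name and no measured value. The 41 rows carried 34 different numbers, from miR-722 to miR-3906, and 7 of these numbers were listed with both arms of the hairpin. The other rows were 203 with lower numbers and the row of miR-731, which was left out of both sets. At the edge of the rule, miR-499 was the last row outside, with between 1693 and 2026 normalized counts over the libraries, and miR-722 was the first inside, with between 1959 and 2606.

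Small RNA was sequenced from pools of whole wild-type Tuebingen zebrafish larvae at 6 dpf, with 1 library for each of 4 conditions. The blank control is labelled wild type only. The vehicle control, called the DMSO control here, received the solvent DMSO. The remaining 2 libraries came from larvae exposed to 5 or 500 μg/L BDE47, a brominated flame retardant, in the same solvent from the gastrula stage on. With 1 library per condition no difference has a replicate check in the sequencing. RT-PCR on replicates is reported in the paper for a few selected miRNAs and was not analysed here. Every comparison below is therefore between libraries, and the 95% intervals (exact Clopper-Pearson, from the reads) cover counting error only. Reads copied by PCR from 1 molecule are not independent, so true errors are wider.

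miRNAs are short RNAs that pair with target mRNAs and lower their translation or stability. Most are cut by Dicer from a hairpin, whose 5p and 3p arms can each give a mature miRNA, and usually 1 arm is kept more often than the other. Numbers are given in order of registration, so a high number mostly marks a miRNA that was found late. Many of the late ones in zebrafish were found by sequencing fish RNA and have no mammalian counterpart, whereas miR-1388, miR-1788, miR-2184 and miR-2188 are also known in chicken. For a few a role in zebrafish is described. miR-722 limits neutrophil movement by repressing the GTPase gene rac2, and miR-3906 is made from an intron of the muscle regulator gene myf5 and takes part in muscle differentiation.

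The listed miRNAs held between 8858169 and 10357704 reads per library. All 980 values were whole multiples of 1 number per library, within a tolerance of 0.01 reads, which gave the reads of each miRNA. Markers of 9 tissues of the larva were all present: the 19 marker miRNAs for muscle, liver, nervous system, skin, red and white blood cells, pancreas, lens and retina and sensory cells were listed, and the lowest leading row, miR-144, had 180 normalized counts in its lowest library. In RNA of whole larvae, fewer cells of a type and less miRNA per cell cannot be told apart.

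The late-numbered miRNAs were scarce. Their median level over the 4 libraries was 368 normalized counts, against 3774 for the rows with lower numbers, which is 10.2 times higher. Over the rows with a mean of at least 10 alone, the ratio of the medians was 6.21. Mature miRNAs differ little in length, so levels of different miRNAs were compared without a length correction. Adaptor ligation and PCR may also favour some sequences, and no correction for this was made. Only 2 of 41 late-numbered rows had a mean above 10000 normalized counts, against 64 of 203 rows with lower numbers (31.5%). At the other end, 9 of 41 late-numbered rows (22.0%) had a mean under 10, against 2 of 203 (0.985%). The late-numbered rows thus made up 9 of the 11 rows that did not pass the filter of a mean of 10 used for the ratios below. In spite of their number, all 41 together held between 1.03% and 1.21% of the listed reads.

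**Figure D1:**
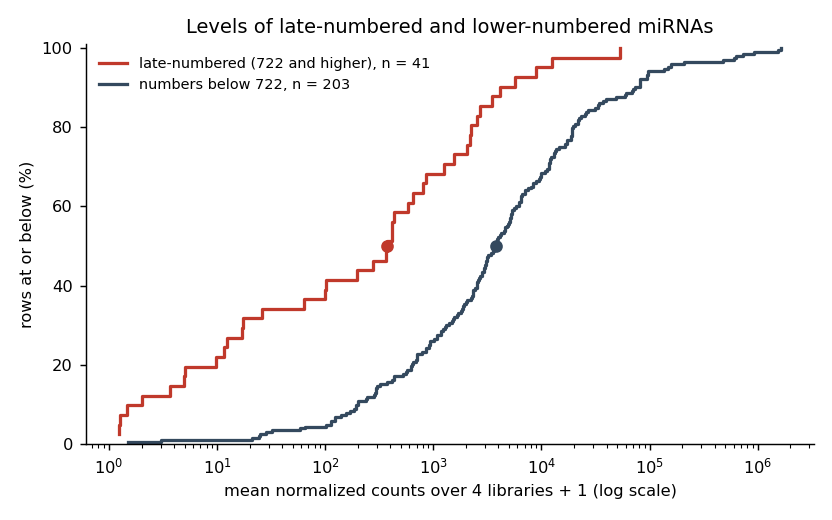
Cumulative share of rows (y axis, percent) at or below each mean level over the 4 libraries (x axis, normalized counts + 1, log scale) for 41 late-numbered miRNAs and 203 miRNAs with lower numbers. Dots mark the medians, 368 and 3774 normalized counts, and the late-numbered curve lies to the left over its whole length.

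A single miRNA, miR-724, whose gene lies inside the copine gene cpne5b, held about as many reads as all other late-numbered ones. miR-724 had 42723 normalized counts in the blank control, 45660 in the DMSO control, 61508 with 5 μg/L and 61352 with 500 μg/L BDE47. Both exposed libraries were above both controls. On the deposited scaling they differed from each other by less than counting error (fold 0.997, 0.986 to 1.01). Against the DMSO control the fold was 1.35 (1.33 to 1.36) with 5 μg/L and 1.34 (1.33 to 1.36) with 500 μg/L. When scaled to all listed reads, the log2 ratios were 0.31 with 5 μg/L and 0.35 with 500 μg/L, in place of 0.43 for both. These lay outside the counting intervals of the ratios to the DMSO control. The likeness of the exposed libraries depends on the scaling as well. For 500 against 5 μg/L, the counting interval of miR-724 was -0.020 to 0.013 on the log2 scale. The median log2 ratio of all miRNAs for this pair was 0.04 when scaled to all listed reads, in place of -0.007. The blank control was slightly below the DMSO control (fold 0.936, 0.923 to 0.948).

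miR-724 made up 43.6% of the late-numbered reads in the blank control (43.3 to 43.9), 45.1% in the DMSO control (44.8 to 45.4), 54.3% at 5 μg/L (54.0 to 54.6) and 51.7% at 500 μg/L (51.4 to 52.0). The late-numbered share of all listed reads was 1.03% (1.025 to 1.039) in the blank control, 1.09% (1.082 to 1.095) in the DMSO control, 1.12% (1.113 to 1.126) with 5 μg/L and 1.21% (1.203 to 1.217) with 500 μg/L. Without miR-724, the summed normalized counts were 55290, 55607, 51741 and 57384 in the same order, so that the 5 μg/L library was then the lowest.

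Next in level after miR-724 came miR-726, miR-2184, miR-725 and miR-2188-5p. miR-726 had 12487 normalized counts in the blank control, 11510 in the DMSO control, 12877 with 5 μg/L and 12817 with 500 μg/L, a range of 1.12-fold. miR-2184 had 9365, 10292, 6764 and 9539 in the same order, so only the 5 μg/L library was low (0.657 of the DMSO control, 0.638 to 0.677). miR-725 had 5097, 7058, 5179 and 5526 in the same order. Here only the DMSO control was high, and the exposed libraries lay close to the blank control (fold 1.02, 0.977 to 1.06, at 5 μg/L and 1.08, 1.04 to 1.13, at 500 μg/L).

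**Figure D2:**
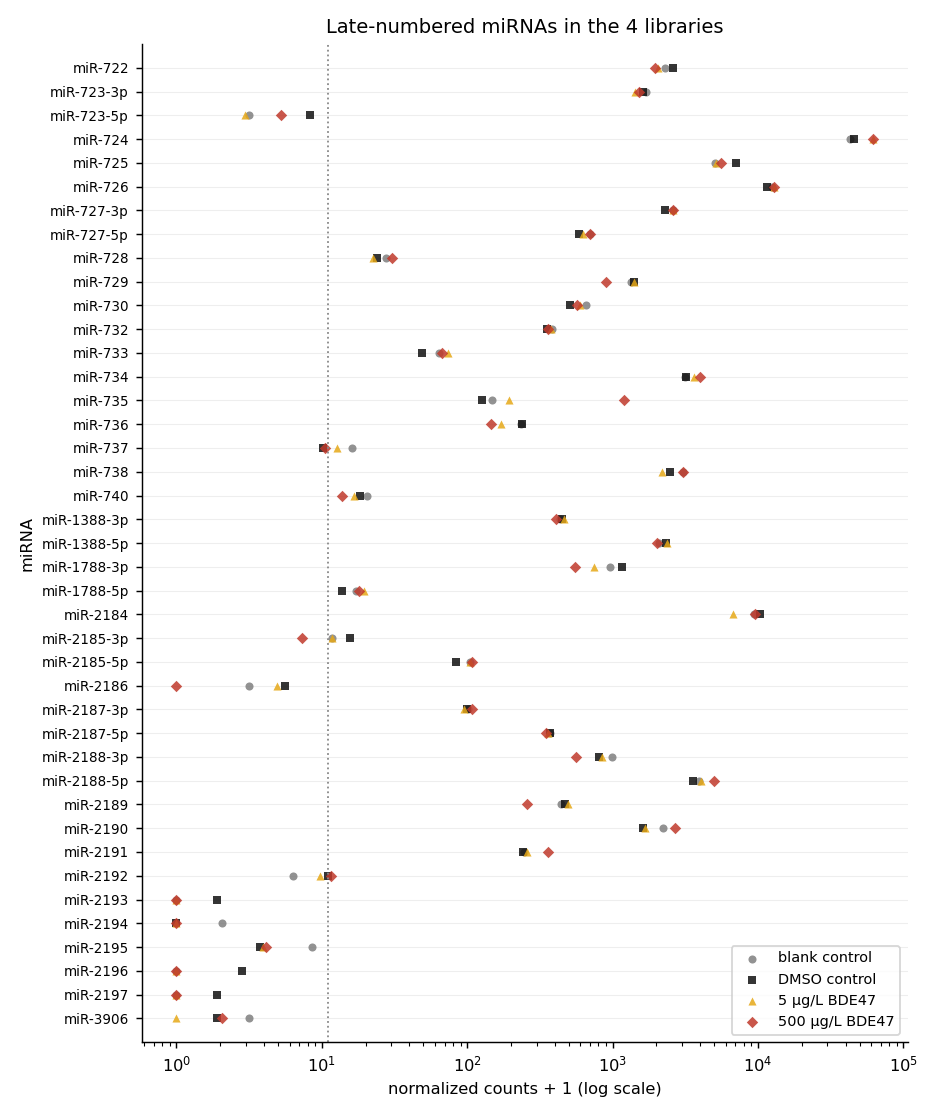
Normalized counts + 1 (x axis, log scale) of the 41 late-numbered miRNAs (rows) in the 4 libraries (symbols); a symbol at 1 is a miRNA listed at 0, and the dotted line marks a value of 10 normalized counts. miR-724 is the most abundant, miR-735 has 1202 at 500 μg/L against 125 to 194 elsewhere, and the rows from miR-2192 to miR-3906 stay near or below the line.

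Gene neighbours were read from the RefSeq annotation of the GRCz12tu assembly, in which 32 of the 34 numbers matched a miRNA gene. Of these, 20 overlapped a protein-coding gene, 5 overlapped a long non-coding RNA gene and no protein-coding gene, and 7 overlapped no other gene. The strand was not in the table used, so an overlap does not show that the miRNA is cut from that gene's transcript. Some of the neighbours and hosts were grouped into themes, which were named after the values had been seen. These were opsin genes, muscle genes, genes of nerve cells, and genes of other small RNA classes. Many of the matched numbers were placed in none of these themes. How often such genes lie at miRNAs with lower numbers was not counted.

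Beside or inside opsin genes lay 4 numbers with 5 rows. miR-726 lay between opn1sw2 and opn1lw1, which encode blue and red cone opsins, and miR-729 was the neighbour of opn1sw1, which encodes the ultraviolet cone opsin. miR-727 and miR-728 both lay inside tmtopsb, an opsin gene expressed in several tissues of fish. Their median range over the 4 libraries was 0.25 on the log2 scale, beside 0.37 over all 234 rows that passed the filter. The single ranges went from 0.16 (miR-726) to 0.63 (miR-729), and the arms of miR-727 count as separate rows. These medians were not compared at like level.

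miR-729 had 1331 normalized counts in the blank control, 1400 in the DMSO control, 1392 with 5 μg/L and 902 with 500 μg/L BDE47. The 500 μg/L library was the low one, and on the deposited scaling the other 3 lay within counting error of each other. When scaled to all listed reads, the log2 ratio of 5 μg/L to the DMSO control was -0.130 in place of -0.0085. That is just outside the counting interval, whose lower bound was -0.114. Its fold was 0.644 against the DMSO control (0.592 to 0.701), 0.678 against the blank control (0.621 to 0.740) and 0.648 against 5 μg/L (0.595 to 0.706). For miR-726, the other cone opsin neighbour, the fold over the DMSO control was 1.11 (1.09 to 1.14) with 500 μg/L and 1.12 (1.09 to 1.15) with 5 μg/L. These small folds depend on the scaling. When scaled to all listed reads, the log2 ratios of miR-726 were 0.08 with 500 μg/L and 0.04 with 5 μg/L, in place of 0.16 for both. In miR-727, both arms were lowest in the DMSO control on the deposited scaling. The 3p arm had 2295 normalized counts there and 2588 to 2619 elsewhere, and the 5p arm 586 and 625 to 700. For the 5p arm, however, the DMSO and 5 μg/L libraries differed by less than counting error (fold 1.07, 0.954 to 1.19). For the 3p arm, the log2 ratio of 5 μg/L to the DMSO control was 0.19 (0.11 to 0.27), which depends on the scaling. When scaled to all listed reads, the median of this pair over all miRNAs was -0.10 in place of 0.02. miR-728, inside the same gene, was far scarcer, with 21.5 to 29.6 normalized counts and no difference beyond counting error between any pair of libraries.

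Muscle genes were the hosts or neighbours of miR-732, miR-735, miR-736, miR-2192 and miR-3906. miR-736 lay inside myh7, which encodes a myosin heavy chain of heart and slow muscle. It had 235 normalized counts in the blank control, 236 in the DMSO control, 170 with 5 μg/L and 146 with 500 μg/L. The exposed libraries were both below both controls, and the controls differed by less than counting error (fold 0.993, 0.826 to 1.19). The fold against the DMSO control was 0.719 (0.590 to 0.875) with 5 μg/L and 0.616 (0.497 to 0.760) with 500 μg/L. The libraries of both concentrations differed from each other by less than counting error (fold 0.857, 0.680 to 1.08). The muscle markers showed no such order. Of these, miR-133a-3p had between 28836 and 34157 normalized counts with the highest value at 500 μg/L, as had miR-206 (2416 to 3634), and miR-1 was highest in the DMSO control (816 to 1147). Whether muscle content had a part in the level of miR-736 was not tested.

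miR-732, the neighbour of spegb, a kinase gene of striated muscle, had between 356 and 382 normalized counts. That was the smallest range of the late-numbered rows that passed the filter, 0.10 on the log2 scale. miR-2192, inside the parvalbumin gene pvalb3, had 5 to 11 reads per library. miR-3906, inside myf5, had 2 reads in the blank control, 1 in the DMSO control, 0 at 5 μg/L (which allows up to 2.93 normalized counts at 3 reads) and 1 at 500 μg/L, too few for any comparison.

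Genes of nerve cells were the hosts or neighbours of 6 numbers with 8 rows. miR-1788 lay inside fev, which encodes a transcription factor of serotonin neurons. miR-1788-3p had 961 normalized counts in the blank control, 1165 in the DMSO control, 743 with 5 μg/L and 551 with 500 μg/L, from 896, 1271, 761 and 522 reads. Each of the 4 libraries differed from every other beyond counting error, the controls included. The 500 μg/L library lay at 0.473 of the DMSO control (0.426 to 0.524) and 0.573 of the blank control (0.514 to 0.639). At 5 μg/L these values were 0.638 (0.583 to 0.699) and 0.774 (0.701 to 0.853), and the blank control was at 0.825 of the DMSO control (0.757 to 0.899). Of the nervous system markers, miR-124 had 1968, 3248, 2340 and 1823 normalized counts in the blank control, the DMSO control, 5 μg/L and 500 μg/L, so that it too was highest in the DMSO control, whereas miR-9-5p stayed between 32848 and 35649 and miR-9-3p between 1115 and 1292. Their part in the level of miR-1788-3p was not tested.

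miR-734, inside the ephrin receptor gene epha6, had 3172 normalized counts in the blank control, 3181 in the DMSO control, 3642 with 5 μg/L and 3988 with 500 μg/L. Its controls were alike within counting error (fold 0.997, 0.949 to 1.05) and both exposed libraries were higher. The fold against the DMSO control was 1.14 (1.09 to 1.20) and 1.25 (1.20 to 1.31) at 5 and 500 μg/L. The size of these folds depends on the scaling. When scaled to all listed reads, the median log2 ratio of all miRNAs to the DMSO control was -0.10 in place of 0.02 at 5 μg/L. At 500 μg/L that median was -0.06 in place of 0.02. miR-2187, inside the muscarinic acetylcholine receptor gene chrm3a, differed by less than counting error in every pair of libraries, with 346 to 373 normalized counts for the 5p arm and 94.8 to 108 for the 3p arm. miR-730, the neighbour of a serotonin receptor gene (htr2cl1), was lowest in the DMSO control, with 507 normalized counts against 570 to 651, although the 500 μg/L library differed from it by less than counting error (fold 1.12, 0.997 to 1.27). At 5 μg/L the fold of miR-730 was 1.17 (1.04 to 1.32). Its lower bound, 0.058 on the log2 scale, also depends on the scaling. miR-2196 and miR-2197, inside the NMDA receptor gene grin2cb and the adhesion gene tenm3, had at most 2 reads in any library.

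Other RNA classes met the late numbers at 3 genes. RefSeq lists miR-735 under the Y RNA symbol rny2, vtrna4 (a vault RNA symbol) is a second name of the miR-733 gene, and the gene of miR-738 overlapped an rRNA gene. Y RNAs bind the protein Ro60 and vault RNAs are part of the vault particle. All 3 rows had a higher value at 500 μg/L than in the DMSO control, by very different amounts. So had 51.7% of all 234 miRNAs that passed the filter, and 18 of 32 late-numbered ones. miR-735 had 148 normalized counts in the blank control, 125 in the DMSO control, 194 with 5 μg/L and 1202 with 500 μg/L. The 500 μg/L library alone stood far above the rest, at 8.12 times the blank control (6.80 to 9.77) and 6.18 times the 5 μg/L library (5.32 to 7.23). The 5 μg/L library was also above the blank control beyond counting error on the deposited scaling (fold 1.31, 1.05 to 1.64). The lower bound, 0.073 on the log2 scale, depends on that scaling. When scaled to all listed reads, the median log2 ratio of all miRNAs for this pair was -0.097 in place of -0.006. The paper lists both miR-735-3p and miR-735-5p as upregulated, whereas the row used here names no arm. miR-735-3p was among the miRNAs that the paper assayed by RT-PCR, for which it used 3 replicates. It describes the RT-PCR changes as generally matching the sequencing.

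miR-733 had 63.3 normalized counts in the blank control, 47.7 in the DMSO control, 72.3 with 5 μg/L and 66.5 with 500 μg/L. The DMSO control was the lowest, but only the 5 μg/L library differed from it beyond counting error (fold 1.52, 1.05 to 2.21), and against the blank control neither exposed library differed beyond counting error (fold 1.05, 0.725 to 1.53, at 500 μg/L). The lower bound at 5 μg/L against the DMSO control, 0.070 on the log2 scale, also depends on the scaling. When scaled to all listed reads, this pair's median over all miRNAs was -0.10 in place of 0.02. miR-738 had 3070, 2484, 2182 and 3059 in the same order. Its 500 μg/L library was at the level of the blank control (fold 0.996, 0.946 to 1.05), and the 5 μg/L library was at 0.711 of it (0.672 to 0.751). So of these 3 rows only miR-735 left the span of the controls at 500 μg/L beyond counting error.

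In miR-2189 and miR-2191 the 500 μg/L library stood apart from the 3 others. miR-2189, which overlapped no gene, had 441 normalized counts in the blank control, 472 in the DMSO control, 489 with 5 μg/L and 256 with 500 μg/L. Only the 500 μg/L library was low, at 0.543 of the DMSO control (0.465 to 0.634), 0.582 of the blank control (0.495 to 0.684) and 0.524 of the 5 μg/L library (0.448 to 0.612). miR-2191, inside the ubiquitin ligase gene marchf9, was the other way round, with 243, 242, 256 and 359 normalized counts in the same order. The 3 other libraries were alike within counting error and the 500 μg/L library was at 1.48 of the DMSO control (1.26 to 1.75) and 1.47 of the blank control (1.24 to 1.75).

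miR-2190, which matched no RefSeq gene, had 2229 normalized counts in the blank control, 1612 in the DMSO control, 1665 with 5 μg/L and 2678 with 500 μg/L. The control libraries themselves were 1.38-fold apart (1.30 to 1.47). Its fold at 500 μg/L was therefore 1.66 (1.56 to 1.77) against the DMSO control but 1.20 (1.13 to 1.27) against the blank control.

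miR-722, whose described role concerns neutrophil movement, lay inside the glucagon receptor gene gcgrb. It had 2294, 2606, 2060 and 1959 normalized counts in the blank control, the DMSO control, 5 μg/L and 500 μg/L. Both exposed libraries were below both controls, at 0.790 (0.747 to 0.837) and 0.752 (0.709 to 0.797) of the DMSO control, and the blank control was at 0.880 of it (0.832 to 0.931). Of the white blood cell markers, miR-142a-5p had 1051, 1612, 922 and 709 normalized counts in the same order, and miR-142a-3p 115, 194, 111 and 69.7. Both were thus also highest in the DMSO control and lowest at 500 μg/L. miR-223 had 252, 235, 351 and 328, and was higher at 500 μg/L than in the DMSO control. Their part in the level of miR-722 was not tested.

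The arms of a hairpin give a measure that does not depend on the scaling between libraries, since both are counted in the same library. The arms of 3 hairpins kept nearly the same ratio throughout. miR-1388-5p had 2092, 2317, 2371 and 2034 normalized counts in the blank control, the DMSO control, 5 μg/L and 500 μg/L, and miR-1388-3p had 434, 444, 461 and 404. The 5p arm thus kept between 4.82 and 5.21 times the reads of the 3p arm. miR-2187-5p had 372, 373, 358 and 346, and miR-2187-3p 99.7, 98.0, 94.8 and 108, a ratio between 3.22 and 3.80. miR-727-3p had 2619, 2295, 2617 and 2588, and miR-727-5p 694, 586, 625 and 700, so that here the 3p arm was the more abundant, by 3.70 to 4.19 times. In miR-723, whose 3p arm had 1703, 1605, 1434 and 1512 normalized counts, nearly all reads came from that arm, against 2, 8, 2 and 4 reads of the 5p arm.

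The arms of miR-2188 went apart at 500 μg/L BDE47. This hairpin lay inside ank1a, which encodes an ankyrin of red blood cells. miR-2188-5p had 3906.5 normalized counts in the blank control, 3594 in the DMSO control, 4086 with 5 μg/L and 4951 with 500 μg/L. miR-2188-3p had 990, 812, 840 and 559 in the same order. The 5p arm was thus highest and the 3p arm lowest in the same library. There were 3.95 reads of 5p for each read of 3p in the blank control (3.67 to 4.25), 4.43 in the DMSO control (4.11 to 4.77), 4.86 at 5 μg/L (4.52 to 5.24) and 8.85 at 500 μg/L (8.09 to 9.70). The interval at 500 μg/L did not overlap those of the other 3 libraries. Of the red blood cell markers, miR-451 had 1660, 1451, 1388.04 and 2302 normalized counts in the same order and was highest at 500 μg/L. miR-144 had 256, 581, 188 and 180, so that here the DMSO control stood apart and not the 500 μg/L library. Their part in the miR-2188 arms was not tested.

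In miR-1788, the 3p arm was lower in the exposed libraries, while miR-1788-5p had 16.1, 12.8, 18.6 and 16.9 normalized counts in the order above, so that the 3p arm had 90.8 times the reads of the 5p arm in the DMSO control (53.9 to 167) and 32.6 times at 500 μg/L (19.9 to 57.5). These intervals overlapped. The blank control, at 59.7 times (36.0 to 107), lay between them. miR-2185 is encoded by 3 genes in RefSeq, of which 2 lay inside the kinase genes pimr60 and pimr62, and its reads cannot be assigned to any of them. miR-2185-5p had 104, 83.4, 104 and 108 normalized counts and miR-2185-3p had 10.7, 14.7, 10.7 and 6.33. The 5p arm had 5.69 times the reads of the 3p arm in the DMSO control (3.32 to 10.4) and 17.0 times at 500 μg/L (7.55 to 47.4), from 16 and 6 reads of the 3p arm. These intervals overlapped, and the blank control (9.70 times, 5.05 to 20.9) and the 5 μg/L library (9.64 times, 5.17 to 19.9) lay between them. Overlap of separate intervals does not show that arm ratios were alike, and the shifts of miR-1788 and miR-2185 were not tested. Shifts of this size were not confined to late numbers. The shifts given next are in the log2 arm ratio after adding 1 to each arm. Over the 26 hairpins with lower numbers and both arms above the filter, the shift from the DMSO control to 500 μg/L had a median size of 0.44 and reached 1.75 (miR-18b). Over 6 late-numbered hairpins the median was 0.62 and the largest 1.46 (miR-2185), and miR-2188 ranked 8 of 32.

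**Figure D3:**
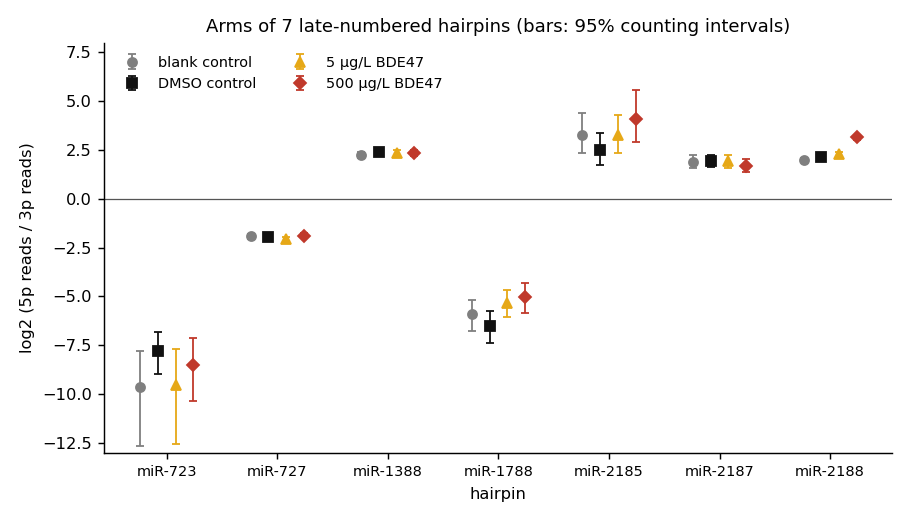
Log2 of 5p reads over 3p reads (y axis) for 7 late-numbered hairpins (x axis) in the 4 libraries (symbols), with 95% counting intervals as bars. In miR-2188 the 500 μg/L library, at 8.85 reads of 5p for each of 3p, stands above the 3.95 to 4.86 of the other libraries, while miR-1388 stays between 4.82 and 5.21.

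Over all, 32 of the 41 late-numbered miRNAs passed the filter, beside 201 of the 203 with lower numbers. A difference was counted when it exceeded 2-fold on the scale of log2 (normalized counts + 1). At 500 μg/L BDE47 against the DMSO control, 3 of 32 did so, 1 higher (miR-735, log2 ratio 3.26) and 2 lower (miR-1788-3p, -1.08, and miR-2185-3p, -1.09). This share was close to the background of 8.97% of all 234 miRNAs (1.28% higher and 7.69% lower). The count for miR-2185-3p rested on 6 reads against 16 (fold 0.432, 0.138 to 1.16), so its interval included a fold of 1, and its mean of 10.6 was just above the filter. With a pseudocount of 10 it was no longer beyond 2-fold.

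At 5 μg/L BDE47 against the DMSO control, 0 of 32 exceeded 2-fold, beside 2.99% of all miRNAs, and between the controls 0 of 32, beside 1.28%. When reads were compared by Fisher's exact test (two-sided) with Benjamini-Hochberg adjustment, which compares libraries and not conditions, 13 of 32 late-numbered miRNAs had an adjusted p under 0.05 at 5 μg/L (68.8% of all 234), 14 between the controls (72.6%) and 21 at 500 μg/L (79.1%). In the same order, the unadjusted counting intervals of 15, 14 and 19 of 32 left out a fold of 1. These intervals used the deposited scaling, whereas the test set each miRNA against all listed reads. The test detects smaller differences where reads are more. The 32 late-numbered rows had a median level of 616 normalized counts, against 3820 for the lower numbers that passed. These shares were therefore not compared at like level. Against the blank control, 1 of 32 was more than 2-fold higher with 500 μg/L (miR-735, background 0.427%) and 0 of 32 were lower (0.427%). With 5 μg/L, 0 of 32 were beyond 2-fold (background 0%). Between the concentrations, miR-735 was again the only one, higher with 500 μg/L (background 0.855% in each direction). Beyond 2-fold against both controls at once, 1 of 32 was higher with 500 μg/L, miR-735 (background 0.427%), and 0 of 32 were lower (0.427%).

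A threshold of 1.5-fold brought out more of the late numbers. At 500 μg/L, 6 of 32 were lower than in the blank control by this margin (miR-736, miR-737, miR-1788-3p, miR-2185-3p, miR-2188-3p and miR-2189), beside 7.69% of all miRNAs and 12 of 201 with lower numbers. Counting intervals of miR-737 and miR-2185-3p included a fold of 1. As with Fisher's test, the shares at 1.5-fold were not compared at like level, and the late-numbered rows had the lower median level. Against the DMSO control the count was 5 of 32 (miR-729, miR-736, miR-1788-3p, miR-2185-3p and miR-2189), at the background of 15.8%, and 2 were higher, miR-735 and miR-2190 (background 5.13%). In the blank comparison 1 was higher, miR-735 (background 3.42%). With 5 μg/L against the DMSO control, miR-733 and miR-735 were higher (background 2.56%) and miR-1788-3p and miR-2184 lower (12.8%). Between the concentrations, miR-735 and miR-2190 were higher with 500 μg/L (background 3.85%) and 4 were lower, miR-729, miR-2185-3p, miR-2188-3p and miR-2189 (5.13%). Against both controls it was 4 of 32 lower, namely miR-736, miR-1788-3p, miR-2185-3p and miR-2189 (background 6.41%), and 1 higher, miR-735 (background 1.71%).

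**Figure D4:**
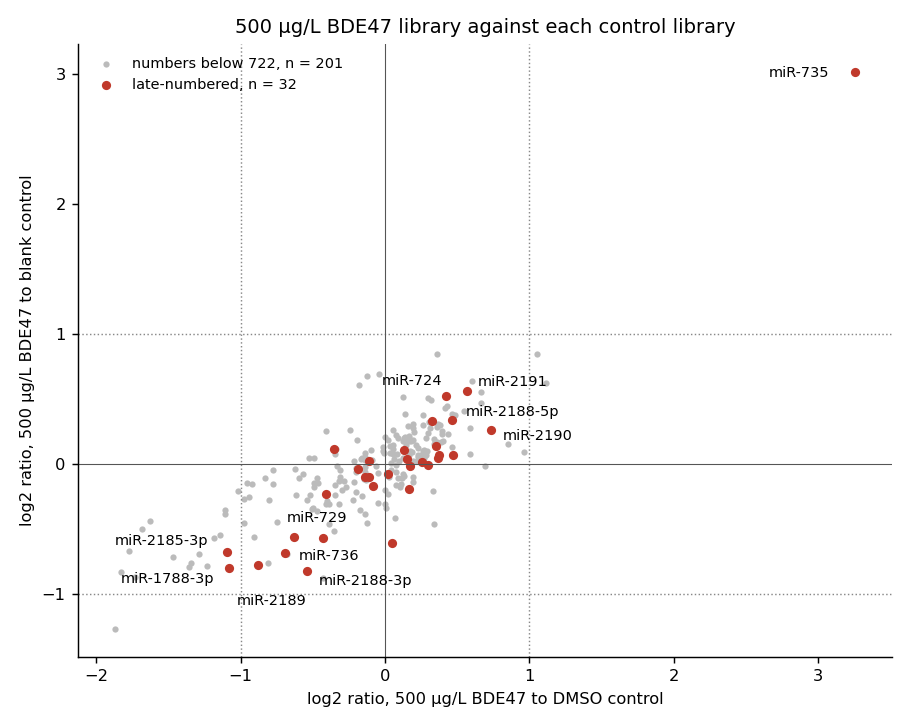
Log2 ratio of the 500 μg/L BDE47 library to the DMSO control (x axis) and to the blank control (y axis) for 32 late-numbered and 201 lower-numbered miRNAs; the 500 μg/L library enters both axes, and dotted lines mark 2-fold. miR-735 lies alone at 3.26 and 3.01, and miR-1788-3p lies at -1.08 and -0.80.

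The controls differed from each other as well. In the blank control, 0 of 32 late-numbered miRNAs were more than 1.5-fold below the DMSO control, beside 11.1% of all miRNAs and 26 of 201 with lower numbers, and 1 was higher (miR-737, 14 reads against 10, background 2.14%). The median log2 ratio of blank to DMSO control was 0.09 over the 32, against -0.05 over the rows with lower numbers and -0.03 over all. The DMSO control was the lowest of the 4 libraries for 13 of 32 (32.5% of all miRNAs) and the highest for 8 (35.9%). The 500 μg/L library was the lowest for 11 (32.5%) and the highest for 9 (31.6%). The shares for the 500 μg/L library were thus near those of all miRNAs.

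The late numbers ranged over the libraries by a median of 0.48 on the log2 scale (1.40-fold), beside 0.36 (1.28-fold) for the lower numbers. When all rows that passed were split by level into 3 bands of equal size, the medians of the lowest band (means of 10.6 to 1281 normalized counts) were 0.57 for 20 late-numbered rows and 0.54 for 58 others. In the middle band (means of 1317 to 6633), they were 0.41 for 9 and 0.32 for 68. In the highest band, they were 0.53 for 3 late-numbered rows (miR-724, miR-726 and miR-2184) and 0.30 for 75 others. A range of more than 2-fold was found in 3 of 32 late-numbered rows (9.38%) and in 20 of 201 others (9.95%).

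**Figure D5:**
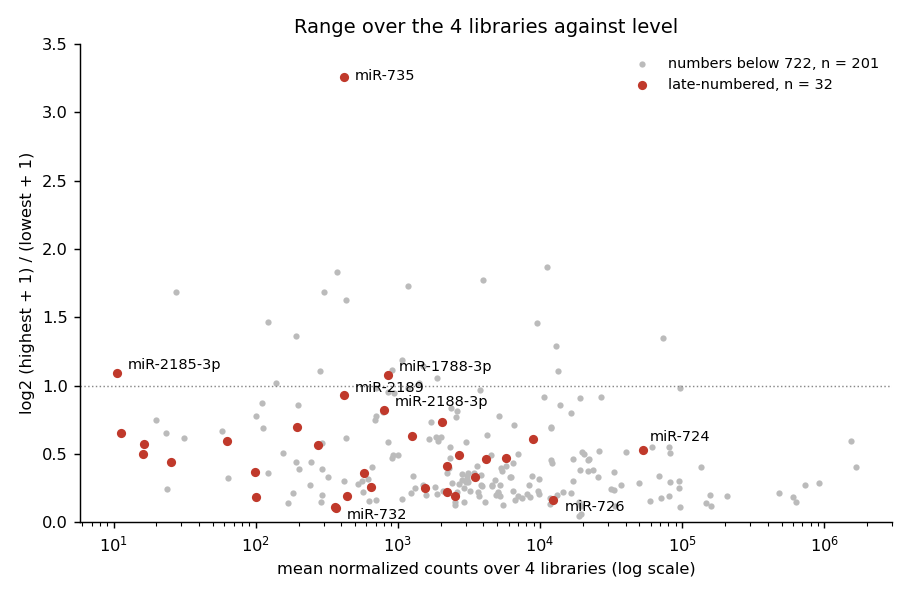
Range over the 4 libraries, as log2 of the highest over the lowest value after adding 1 (y axis), against mean normalized counts (x axis, log scale) for 32 late-numbered and 201 lower-numbered miRNAs. miR-735 has the widest range, 3.26, whereas miR-732 has 0.10 and miR-726 0.16, and most late-numbered miRNAs lie among the others at like level.

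By number, 18 of the 19 rows from miR-722 to miR-740 passed the filter, as did all 4 rows of miR-1388 and miR-1788 and 10 of the 17 rows from miR-2184 to miR-2197. The single higher number, miR-3906, did not. Among the scarce ones that passed were miR-737 (9.16 to 15.0 normalized counts), inside the endocytosis adaptor gene ap2m1b, and miR-740 (12.7 to 19.3), inside the vesicle transport gene vps8, and neither differed between libraries beyond counting error. The 7 rows of numbers also known in chicken had a median level of 855 normalized counts, and the other 34 had 236. All 7 passed the filter, against 25 of the 34. Of the 7, 1 was beyond 2-fold at 500 μg/L against the DMSO control (miR-1788-3p), beside 8.97% of all miRNAs, and their median log2 ratio was -0.14 there, beside 0.02 over all.

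The 9 rows under the filter were miR-723-5p, miR-2186, miR-2192 to miR-2197 and miR-3906. They held 87 reads over the 4 libraries together and at most 11 in any library. miR-2193 and miR-2197 had 1 read each and miR-2196 had 2, all in the DMSO control, and miR-2194 had 1, in the blank control, so these 4 were listed at 0 in the 3 other libraries. A count of 0 allows up to 3 reads, or 2.75 to 3.22 normalized counts. miR-2186 had 2, 5, 4 and 0 reads in the blank control, the DMSO control, 5 μg/L and 500 μg/L. No difference between libraries was detectable at this depth for any of the 9.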

How the data were processed

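Per the paper's methods, reads of small RNA libraries were filtered by quality, length and adaptor and mapped to zebrafish miRNAs listed in miRBase. The authors deposited a normalized signal, which was found to be reads over a size factor of each library, since 100% of values were whole multiples of 1 number. The handling of reads that fit several miRNAs is not given in the sources used here, and similar miRNAs may share reads. Ratios were computed as log2 after adding 1 over the 234 rows whose mean reached 10 normalized counts, which understates changes of low miRNAs. Folds and printed arm ratios were taken without a pseudocount, while shifts in the log2 arm ratio were taken after adding 1 to each arm. Intervals were exact Clopper-Pearson intervals of the reads. The members, lists and rules were chosen with earlier results of these data known. Named miRNAs were those beyond 2-fold in any pair of libraries, the 5 most abundant, hairpins with both arms listed, and those of known role or conservation. The others were named for their gene neighbours or after their values were seen. Calculations were tested on simulated reads. No p-value was computed for a condition, since each had 1 library. RefSeq (GRCz12tu) served for gene names and neighbours only. Sequences and seeds were not analysed here. Alternatives covered pseudocounts, filters, scalings, thresholds, controls and the set of rows. Computations ran in Python 3.11.15 with scipy 1.17.1, numpy 2.4.6 and pandas 2.3.3, and plots in matplotlib 3.10.9.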

Additional observations from a re-analysis of the deposited data

How the results depend on the processing

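Scaling, pseudocount and a mean of at least 100 left each count of late-numbered miRNAs beyond 2-fold within 1.5 times its value. Without the filter, the counts were 5 (500 μg/L against the DMSO control), 2 (5 μg/L against the DMSO control), 4 (between the controls), 4 and 3 (500 and 5 μg/L against the blank control) and 3 (between concentrations), since rows of a few reads entered. At 1.5-fold they were 7, 4 and 1 for the 3 comparisons with the DMSO control, 7 for 500 μg/L against the blank control and 6 between concentrations. Against the mean of both controls, the count at 500 μg/L was 1. Fisher's exact test on reads gave 21, 13 and 14 for 500 μg/L, 5 μg/L and the blank control against the DMSO control. Without miR-733, miR-735 and miR-738, an alternative added after the data were seen, the counts at 500 μg/L against the blank control and against 5 μg/L were 0, as miR-735 was their sole member. With a mean of at least 10, the lower-numbered median was 6.21 times the late-numbered one. A pseudocount of 10 moved the log2 arm ratio of miR-723 to -6.54 (DMSO control) and -6.74 (500 μg/L), of miR-1788 to -5.69 (DMSO control) and of miR-2185 to 2.85 (500 μg/L). With scaling to the listed reads, the log2 ratios of all miRNAs for 5 μg/L against the DMSO control had a median of -0.10 in place of 0.02. Of 320 alternative log2 ratios of 16 named miRNAs, 295 stayed within counting error with the same sign and 25 did not. Of these 25, 9 changed sign, all with a main ratio of at most 0.081 in size. The others kept their sign but left the counting interval. Among them were both exposed libraries against the DMSO control for miR-724 and miR-726, scaled to the listed reads. No paired analysis was possible because each condition had 1 library. Depth limited the rows under a mean of 10, where no difference was detectable.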
